A study of Mus musculus with 6 samples.

Results

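Type 2 cytokine lymphocytes were taken here as single-cell barcodes that carried Gata3 together with Il5, Il13 or Il1rl1 transcripts and no transcript of 4 genes of other lineages. A barcode was a member if it had at least 1 unique molecular identifier (UMI, 1 captured RNA molecule) of Gata3, at least 2 in the sum of Il5, Il13 and Il1rl1, and 0 of Foxp3, Csf1r, Cpa3 and Ms4a2. Of 46891 barcodes kept after quality filtering, 355 were members, among 30794 lymphocytes. Of these, 314 had at least 2 UMIs in the sum of Cd3d, Cd3e and Cd3g and are called T members. A further 31 had none and are called CD3-zero members, the candidates for group 2 innate lymphoid cells (ILC2), and 10 had exactly 1.

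The study placed a breast cancer brain metastasis cell line either in the brain (BrM group, 3 libraries) or in the mammary fat pad (MFP group, 3 libraries) of female C57BL/6J mice aged 10 to 12 weeks. Immune cells were sorted from the dissociated tumours as CD45 positive, DAPI negative and RedDot1 positive, and their 3′ transcript ends were counted by droplet sequencing. Both groups share the strain, the sex, the age range, the injected line and the sort, and no untreated tissue was analysed here. The labels name neither the line nor the animals behind each library, so the libraries are the units of every test, and part of their spread may be technical. Some fits below took their spread from all genes or all classes jointly. Their p-values do not measure how far a single gene or class varied between libraries. CD45 itself (Ptprc) stood at 814 CPM (a gene's share of the UMIs of its population, on the usual sequencing scale) in T members and 788 CPM in CD3-zero members.

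Type 2 lymphocytes are known for secreting interleukin-5, which sustains eosinophils, and interleukin-13, which acts on epithelium and macrophages. T helper 2 (Th2) cells do so on antigen recognition, whereas ILC2 lack an antigen receptor and answer tissue alarm signals such as interleukin-33, whose receptor ST2 is encoded by Il1rl1. GATA3 is the transcription factor that both lineages need, and amphiregulin (Areg) is a growth factor of the epidermal growth factor family that such cells release in damaged tissue.

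The rule rests on Il5, Il13 and Il1rl1 beside Gata3, so the bases before the start sites of these 3 genes are shown. Il5 lies on the plus strand of chromosome 11 from 53720794 to 53725106, Il13 on its minus strand from 53631324 to 53634702, and Il1rl1 on the plus strand of chromosome 1 from 40429570 to 40465415 (GRCm38, protein coding). The 250 bases before the RefSeq start site (GRCm38.p6), for Il1rl1 the first of its 2 start sites, are printed 5′ to 3′ on the gene's strand. Capitals mark GATA words, searched on both strands: AGATAA or AGATAG with a leading A, TGATAA or TGATAG with a leading T.
Il5: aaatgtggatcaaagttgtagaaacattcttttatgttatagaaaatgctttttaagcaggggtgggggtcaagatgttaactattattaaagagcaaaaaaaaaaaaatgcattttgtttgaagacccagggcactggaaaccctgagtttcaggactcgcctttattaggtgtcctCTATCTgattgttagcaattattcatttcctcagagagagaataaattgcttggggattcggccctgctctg
Il13: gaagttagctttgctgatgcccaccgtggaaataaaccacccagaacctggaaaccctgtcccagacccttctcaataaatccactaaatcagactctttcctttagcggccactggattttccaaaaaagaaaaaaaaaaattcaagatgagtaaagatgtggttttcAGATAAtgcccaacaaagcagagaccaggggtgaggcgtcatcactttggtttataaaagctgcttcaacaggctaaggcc
Il1rl1: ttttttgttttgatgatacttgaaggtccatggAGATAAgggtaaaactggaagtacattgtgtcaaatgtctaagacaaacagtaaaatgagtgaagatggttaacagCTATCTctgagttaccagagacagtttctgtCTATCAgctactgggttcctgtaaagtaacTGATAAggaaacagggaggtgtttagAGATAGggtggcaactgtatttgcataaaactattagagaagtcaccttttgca
The Il5 and Il13 windows held 1 word each, beginning 72 and 81 bases before the start, and the first Il1rl1 window held 5. The window before the second Il1rl1 start site, chr1:40439379-40439628, held 1 and is not printed. Of 32851 promoter windows of this length in the table, 26.5% held at least 1 such word. A match is a description of letters, not a binding site, and these data carry no binding measurement.

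The 6 libraries held 7083 to 8986 barcodes and 50692794 to 70944735 UMIs. Lymphocytes made up 91.7%, 92.2% and 94.9% of the kept barcodes in BrM 1, MFP 1 and MFP 2, and 26.1% to 42.0% in BrM 2, BrM 3 and MFP 3, so the 2 kinds of library are given apart where the site is compared. BrM 1 to 3 held 16, 11 and 5 members, whereas MFP 1 to 3 held 97, 213 and 13. MFP 2 alone therefore held most of them. No barcode was a member in more than 1 library, and 3 members shared their barcode with another kept barcode elsewhere.

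Members were chosen by their measured Gata3, Il5, Il13 and Il1rl1 UMIs, and these values are described without a test. Of 417 barcodes that met the 2 positive criteria, Foxp3 removed 57, Csf1r removed 10, and Cpa3 or Ms4a2 removed 0. At the edge of the rule, 91 members had a sum of exactly 2, while 194 barcodes that met every other criterion had a sum of 1 and 150 had no Gata3 UMI. All T members carry Gata3 by rule, at a pooled level of 511 CPM, and CD3-zero members stood at 878 CPM. Il1rl1 was found in 286 of 314 T members and in 31 of 31 CD3-zero members, against 0.422% of natural killer (NK) or ILC1 cells, 5.31% of CD4 conventional T cells and 20.8% of regulatory T (Treg) cells.

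The cytokines came from few cells. Il5 was found in 80 T members, Il13 in 108 and both in 42, while 168 T members had Il1rl1 and neither cytokine. Members held 455 of the 493 Il5 UMIs in all kept barcodes (92.3%), 594 of 1016 Il13 UMIs (58.5%) and 67 of 212 Il4 UMIs (31.6%). Ranked by UMIs, 10 cells carried 60.4% of the members' Il5 and 42.6% of their Il13, whereas 10 cells carried 10.4% of Il1rl1. The highest Il5 cell, with 67 UMIs, was an MFP 2 cell with 1 CD3 UMI, and the highest Il13 cell, with 84, was an MFP 2 T member. The curves of cumulative UMIs show the same order, steepest for Il5 and flattest for Il1rl1.

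**Figure D1:**
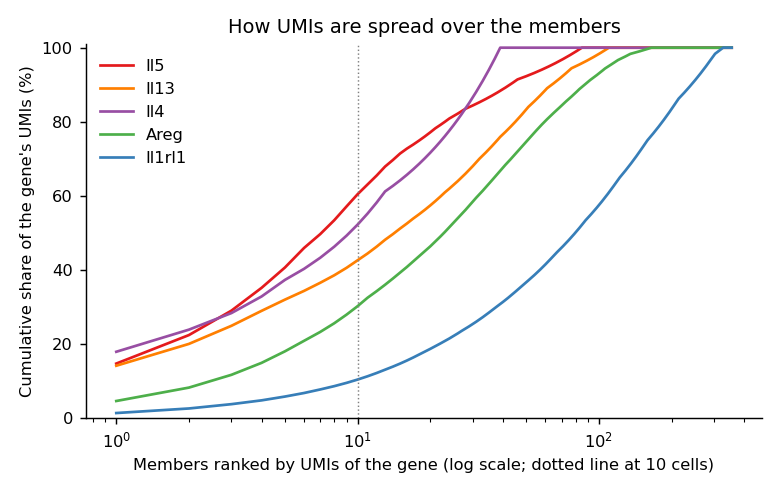
Cumulative share of each gene's UMIs in the 355 members (vertical axis, %) against members ranked from the highest count down (horizontal axis, log scale), for 5 genes. At the dotted line, 10 cells hold 60.4% of Il5, 52.2% of Il4, 42.6% of Il13, 30.2% of Areg and 10.4% of Il1rl1 UMIs.

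Outside the members, Il13 lay mainly in other T cells, with 165 UMIs in T cells of no finer class and 122 in CD4 conventional T cells, and its place differed between libraries. In BrM 3 only 4.73% of 169 Il13 UMIs fell in members, and 1 T cell outside the rule held 91. In BrM 2, 12 barcodes with Cpa3 or Ms4a2, genes of mast cells and basophils, held 24 of the 48 Il13 UMIs, 22 of them in 1 cell. In MFP 3, 1 such barcode held 50.7% of the Il13 UMIs. In MFP 1 and MFP 2 the members held 79.9% and 76.3%.

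Members formed a smaller share of lymphocytes in the brain tumour libraries. BrM 1 to 3 had shares of 0.22%, 0.373% and 0.146%, and MFP 1 to 3 had 1.32%, 2.65% and 0.753%. The groups did not overlap: the mean was 0.246% ± 0.116 (SD, n = 3) against 1.57% ± 0.972 (SD, n = 3), a ratio of 6.38. An exact two-sided permutation test of the 6 shares gave p = 0.1, the smallest that 3 libraries against 3 allow. Without MFP 2, the highest library, the MFP mean was 1.04% and the ratio 4.20.

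T members and CD3-zero members showed the same direction. As a share of lymphocytes, T members of BrM 1 to 3 came to 0.22%, 0.305% and 0.146%, whereas those of MFP 1 to 3 came to 1.18%, 2.34% and 0.521%. CD3-zero members numbered 0, 1 and 0 in the BrM libraries, and 7, 19 and 4 in the MFP libraries. By the exact binomial 95% interval, 0 cells allow a share of up to 0.0507% in BrM 1 and 0.107% in BrM 3. The 1 cell in BrM 2 gave 0.0339%, with an upper bound of 0.189%. The shares measured in MFP 1 to 3 were 0.0951%, 0.236% and 0.232%, so the bounds of BrM 2 and BrM 3 reach above MFP 1. These intervals cover counting error only.

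**Figure D2:**
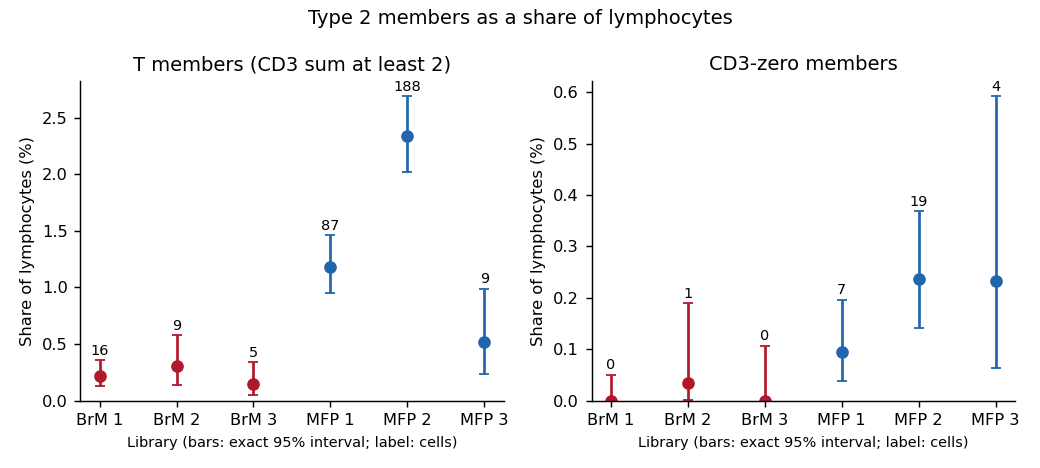
Share of lymphocytes (vertical axis, %) in each of the 6 libraries for T members (left) and CD3-zero members (right); points are single libraries, bars exact binomial 95% intervals and labels cell numbers. The 3 BrM points lie between 0.146% and 0.305% for T members, below the lowest MFP point at 0.521%.

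A count model over 10 gated lymphocyte classes gave the same order with a test that 3 libraries a group can pass. It takes its spread from the 10 classes jointly, so its p-values do not measure the spread of the T members or CD3-zero members alone. With the lymphocyte total as library size, edgeR's quasi-likelihood test called 2 of the 10 classes (20%) at an adjusted p below 0.05, and these were the T members and the CD3-zero members. The log2 difference, BrM minus MFP, was -2.65 ± 0.54 (SE, adjusted p = 0.00018) for T members and -4.18 ± 1.02 (SE, adjusted p = 0.000988) for CD3-zero members. Without BrM 1 the differences were -2.67 and -3.29, and both adjusted p were 0.0878. Without MFP 2 the T member difference was -2.0 (adjusted p = 0.0162), and without BrM 2, the BrM library with a CD3-zero cell, the CD3-zero difference was -6.33 (adjusted p = 0.000686). With a term for the kind of library they were -2.31 and -4.42, with an adjusted p of 0.00129 for both.

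Within each kind of library the direction was the same, with too few libraries for a test. In the lymphocyte-rich libraries the share of members was 0.22% in BrM 1 against 1.32% and 2.65% in MFP 1 and MFP 2. In the others it was 0.373% and 0.146% in BrM 2 and BrM 3 against 0.753% in MFP 3. Among all kept barcodes the groups overlapped, since MFP 3 had 0.196% and BrM 1 had 0.202% (exact permutation p = 0.2, n = 3 each). Thinned to 2000 UMIs a cell, the shares were 0.0644%, 0.11% and 0.0999% against 0.573%, 1.51% and 0.196%, and thinned CD3-zero shares overlapped. Fewer such cells and less Il1rl1, Il5 or Il13 RNA per cell cannot be told apart under a rule that counts these UMIs.

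The set was then checked against marker lists of the cell types the sort could hold. Of 20 ILC2 genes, 18 were detected in CD3-zero members, each at 20 CPM or more, and Nmur1 and Ptgdr2 were at 0. In T members 19 were detected and 13 reached 20 CPM. Of 18 Th2 genes, 15 reached 20 CPM in T members against 7 in CD3-zero members, where Cd4, Il21, Cd40lg and Tnfrsf4 were at 0, and Il24 was at 0 in both kinds. Mast cell and basophil genes summed to 78.2 CPM in T members, nearly all of it Hdc at 71.4 CPM, with Mcpt8, Mcpt4, Tpsb2, Fcer1a, Gata2 and Prss34 at 0. Eosinophil genes summed to 3.89 CPM and neutrophil genes to 16.5 CPM in T members, and both to 0 in CD3-zero members.

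Markers of some other cells were present too. The NK or ILC1 list had the highest sum of these, 2284 CPM in T members and 1784 CPM in CD3-zero members, with 13 and 12 of its 14 genes at 20 CPM or more. In CD3-zero members this sum was 524 CPM in MFP 1, 210 CPM in MFP 2 and 9737 CPM in MFP 3, where 4 cells carried 221 UMIs of 13 genes, so MFP 3 stood apart. The macrophage and monocyte list summed to 596 CPM in T members and 948 CPM in CD3-zero members, carried by Ccr2 (239 and 571 CPM) and Cst3 (186 and 188 CPM), with Lyz2 at 11.7 and 20.9 CPM. The Treg list summed to 1159 CPM in T members and 1178 CPM in CD3-zero members, with 7 and 5 of its 10 genes at 20 CPM or more. The dendritic cell list summed to 131 and 125 CPM, and the B cell list to 84.0 and 90.6 CPM, mostly Ighm. At least 2 UMIs of the NK genes Ncr1, Klrb1c and Klre1 were found in 19 of 314 T members and in 1 of 31 CD3-zero members, the latter in MFP 3. Their part in the results below was not tested.

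**Figure D3:**
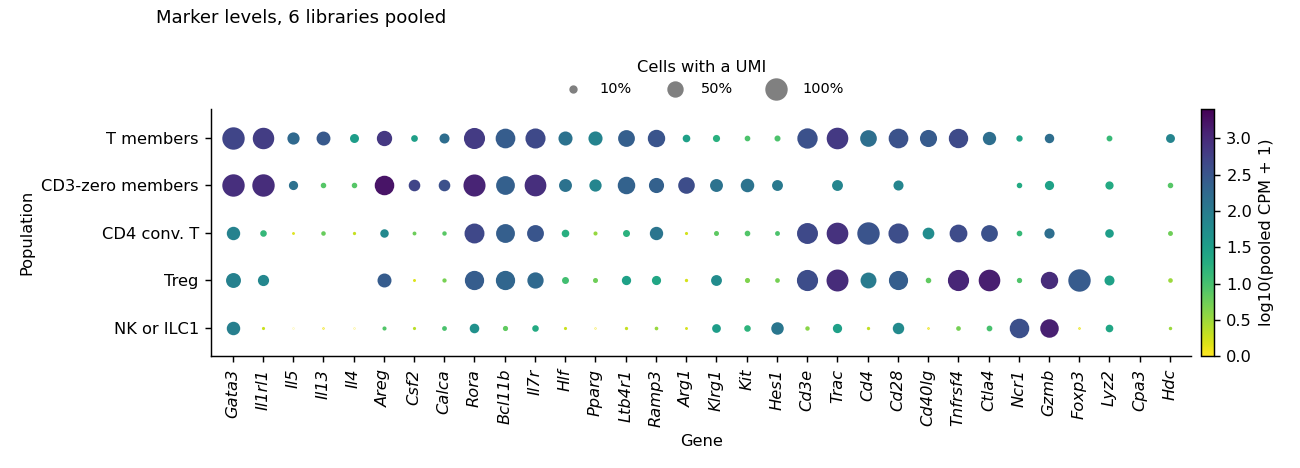
Marker genes (horizontal axis) in 5 populations pooled over the 6 libraries (vertical axis); dot area gives the share of cells with a UMI and colour log10 of CPM + 1. T members and CD3-zero members share Rora, Bcl11b, Il7r, Hlf, Pparg and Ltb4r1, whereas Trac, Cd4, Cd40lg and Tnfrsf4 are high in T members and Arg1, Klrg1 and Kit in CD3-zero members.

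Most T members with a Cd4 or Cd8 transcript had Cd4 alone. Those with neither could not be placed by these genes. A Cd4 UMI without Cd8a or Cd8b1 was found in 149 of 314, the reverse in 13, both in 15 and neither in 137. Cd4 was detected in 52.2% of T members and in 46.8% of Treg cells, a population that mostly carries CD4 protein, so an absent Cd4 UMI does not show an absent protein. Only 10 T members had at least 2 UMIs of Trdc, the constant region of the delta chain. Zbtb16, the factor of innate-like T cells, stood at 1.46 CPM.

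Levels of the cytokine genes varied between libraries. Il4, the cytokine that directs Th2 fate, was found in 38 T members, 20 of them with Il13. Its level was 15.4 CPM in MFP 1 and 49.7 CPM in MFP 2, 13.5 CPM in BrM 1 and 0 in the others. Areg stood at 358, 331 and 792 CPM in T members of BrM 1 to 3 and at 815, 755 and 156 CPM in those of MFP 1 to 3, so the sites overlapped. Il13 stood at 74.3, 91.9 and 155 CPM in BrM 1 to 3 and at 316, 321 and 213 CPM in MFP 1 to 3. Il5 was at 20.3 CPM in BrM 1, 159 CPM in MFP 1 and 241 CPM in MFP 2, and at 0 in T members of the other 3 libraries. Il13 and Il5 belong to the rule, so these levels are descriptions.

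T members and CD3-zero members of the same MFP libraries were compared next. BrM libraries held 1 CD3-zero member in all and did not enter. Only MFP 2 had 10 cells of both kinds, so the fit used a minimum of 4 cells, chosen after the cell numbers were seen, with library as a block. edgeR's quasi-likelihood test called 113 of 1234 genes (9.16%), 57 higher in T members (4.62%) and 56 lower (4.54%). DESeq2 called 78, of which 30 were higher. Of the 113, 2 were also called without MFP 2 (3 calls in all) and 25 without MFP 1 (25 calls), while 136 genes were called without MFP 3.

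T members had higher levels of antigen receptor and costimulatory genes than CD3-zero members. Of the 23 genes of the T cell receptor list, 16 had UMIs in CD3-zero members, with a sum of 1882 CPM against 8075 CPM in T members. This list includes Cd3d, Cd3e and Cd3g, at 0 in CD3-zero members by rule, so the split itself fixes part of that gap. Among 12 tested genes of the T cell receptor list, 9 were higher in T members and 0 lower, where 4.62% of all tested genes were higher. Trac, the alpha chain constant region, stood at 690, 651 and 609 CPM in T members of MFP 1 to 3 and at 138, 65.7 and 0 CPM in CD3-zero members, a log2 difference of 3.12 ± 0.47 (SE, adjusted p = 0.00132). Trbc2, a beta chain constant region that is also transcribed without rearrangement, was less separated, at 1165, 1046 and 907 against 331, 526 and 308 CPM. The kinase Lck, the adaptor Lat and the receptors Cd5, Cd6 and Cd28 were higher in T members in all 3 libraries. Cd3d, Cd3e and Cd3g define the 2 kinds and were not tested.

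Several genes were read in T members and never in CD3-zero members of these libraries. Tnfrsf4 (OX40, a costimulatory receptor) was at 457, 391 and 397 CPM in T members against 0 in each library, at least 18.7-fold higher against a floor of 3 UMIs over the whole CD3-zero group. Cd40lg, the ligand by which helper T cells activate other cells, was at least 13.7-fold higher. Ctla4, an inhibitory receptor, was at least 6.34-fold higher. The regulator of G protein signalling Rgs16, the proenkephalin gene Penk and Igfbp7 were at least 8.61-fold, 7.13-fold and 6.39-fold higher. Of the 286 Penk UMIs in these T members, 85 lay in 1 MFP 1 cell, and MFP 2 held 37. Of 11 tested inhibitory and costimulatory genes, 7 were higher in T members, among them Icos and Pdcd1, and 1 was lower, Arg1. Genes at 0 in CD3-zero members passed the low-count filter through the T members alone, so a call could only be higher in T members. Of these 11 genes, 2 were of that kind.

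Other genes were higher in T members without being absent from the CD3-zero cells. Xcl1, a chemokine for cross-presenting dendritic cells, was at 316, 214 and 482 CPM against 0, 13.1 and 0 CPM. Plac8 was at 336, 484 and 14.2 CPM against 0, 26.3 and 0 CPM. Cd48, an adhesion molecule, had a log2 difference of 4.57 ± 0.84 (SE, adjusted p = 0.0043). Of 7 tested lipid and glycolysis genes, the glycolytic enzymes Gapdh, Pgk1 and Eno1 were higher in T members and 0 genes were lower.

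CD3-zero members had higher Arg1, Csf2, Areg and Lmo4. Arg1, the arginine-degrading enzyme that ILC2 are known to carry, was at 855, 276 and 308 CPM in CD3-zero members of MFP 1 to 3 and at 50.9, 23.9 and 0 CPM in T members, a log2 difference, T minus CD3-zero, of -3.95 ± 0.41 (SE, adjusted p = 0.000156). Csf2, the granulocyte-macrophage growth factor, was at 469, 697 and 44.1 CPM against 60.2, 20.3 and 14.2 CPM (-4.04 ± 0.50, SE, adjusted p = 0.000329), from 7 CD3-zero cells in the 4 libraries that held any. Areg was at 1985, 1985 and 485 CPM against 815, 755 and 156 CPM (-1.43 ± 0.25, SE, adjusted p = 0.00331). The transcription cofactor Lmo4 was at 1572, 789 and 925 CPM against 38.6, 115 and 28.3 CPM. In each of these 4 genes the CD3-zero value was the higher in all 3 libraries.

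The other genes named by size were Lpcat2, a lipid-remodelling enzyme, at 303, 289 and 176 CPM against 0, 8.29 and 0 CPM, the amino acid transporter Slc7a8, the chemokine Cxcl2, the heparan sulfate enzyme Hs3st1, Tmem176b, Igsf5 and Ccdc184. All were higher in CD3-zero members in every MFP library. Classic ILC2 surface genes pointed the same way with fewer UMIs. Klrg1 was at 138, 131 and 176 CPM against 10.8, 21.2 and 0 CPM without passing (adjusted p = 0.052), and Kit at 55.2, 145 and 220 CPM against 0, 9.21 and 70.9 CPM did not pass either (adjusted p = 0.101). Il7r, the receptor for interleukin-7, was at 1103, 973 and 441 CPM against 358, 557 and 298 CPM (adjusted p = 0.052).

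Some genes found in both kinds showed no such gap. Bcl11b, Hlf, Ltb4r1, Ramp1 and Ramp3 gave log2 differences between -0.12 and 0.52, with standard errors of 0.36 to 0.52, and did not pass. On simulated counts this fit recovered 32% of 4-fold changes, so not passing does not show equal levels. Of 14 tested ILC2 genes 1 was higher (Icos) and 1 lower (Arg1) in T members. The log2 difference was negative in 10 of the 14, with a median of -0.67, against 0.02 over all tested genes. Of 23 tested immediate-early and NF-kB feedback genes, which follow cell stimulation within minutes to hours, 10 were lower in T members and 2 higher, where 4.54% of all tested genes were lower. Fosb was at 1682, 1880 and 3437 CPM in CD3-zero members against 722, 584 and 198 CPM.

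**Figure D4:**
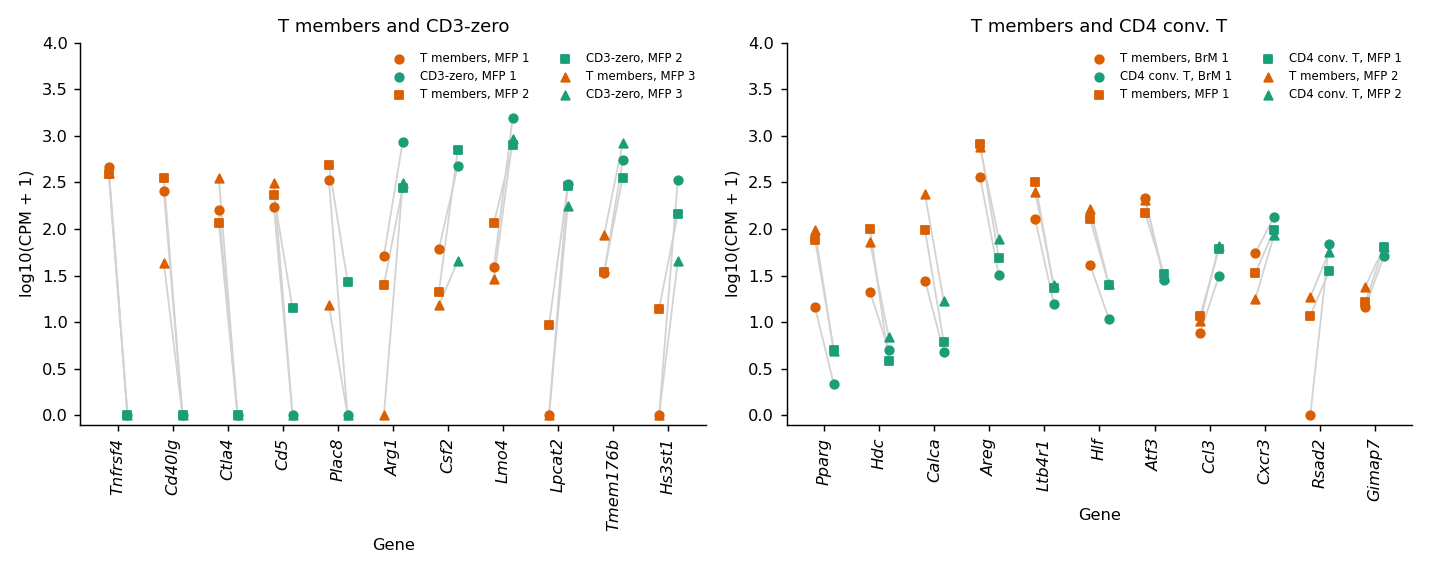
Levels as log10 of CPM + 1 (vertical axis) in each library for T members (orange) and, in green, CD3-zero members of MFP 1 to 3 (left) or CD4 conventional T cells of BrM 1, MFP 1 and MFP 2 (right); grey lines join the same library and marker shapes the libraries. Tnfrsf4, Cd40lg and Ctla4 are at 0 in all 3 CD3-zero libraries, and Ltb4r1 is above 120 CPM in T members and below 25 CPM in CD4 cells in all 3 libraries.

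T members were then set against CD4 conventional T cells, the nearest other population, gated on Cd4 with no Foxp3 and no Cd8. BrM 1, MFP 1 and MFP 2 had at least 10 cells of both. edgeR's quasi-likelihood test with library as a block called 757 of 9873 genes (7.67%), 471 higher in T members (4.77%) and 286 lower (2.9%). The fit took the spread from all genes jointly, so sizes and per-library values are given first. With library totals in place of TMM factors 363 of 801 calls were higher, and with DESeq2 205 of 264. The call count was 291 without MFP 1 and 276 without MFP 2.

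Receptors for lipid mediators and neuropeptides set T members apart from CD4 cells. Ltb4r1, the leukotriene B4 receptor, was at 128, 321 and 251 CPM in T members of BrM 1, MFP 1 and MFP 2 and at 14.8, 22.1 and 24.2 CPM in CD4 cells, a log2 difference of 3.63 ± 0.15 (SE, adjusted p = 8.24e-122). Ptgir, the prostacyclin receptor, was at 13.5, 41.7 and 51.6 CPM against 0.836, 2.25 and 3.97 CPM. Ramp1 and Ramp3, partners of the receptor for calcitonin gene-related peptide (CGRP), and Cysltr1, a cysteinyl leukotriene receptor, were also higher. Of 17 tested genes of the alarmin and neuropeptide receptor list, 6 were higher and 1 lower (Il18r1), where 4.77% of all tested genes were higher. Ptgdr2, the prostaglandin D2 receptor often used to mark Th2 cells and ILC2, was at 0 in both kinds of member.

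The peptide and growth factor genes moved with them. Calca, which encodes CGRP, was at 27.0, 95.6 and 236 CPM against 3.82, 5.11 and 15.7 CPM, a log2 difference of 4.04 ± 0.20 (SE). It was found in 50 of 314 T members. Areg was at 358, 815 and 755 CPM against 31.2, 48.2 and 78.1 CPM (3.71 ± 0.16, SE). Il4 and Csf2 were higher in all 3 libraries as well. In BrM 1, Il4 and Calca were each found in 1 of 16 T members. Over all members, 10 cells carried 52.2% of the Il4 and 54.5% of the Calca UMIs. Of 11 tested type 2 and growth cytokines, 7 were higher and 2, Il10 and Penk, were lower. Among 15 tested cytokines of other lineages, 7 were lower, among them Il17a and Ccl3, and 2 were higher, Il2 and Tgfb1. Of all tested genes, 4.77% were higher and 2.9% lower. In BrM 1 the T member value went the other way for Il17a (27.0 against 12.9 CPM) and Il2 (6.75 against 26.5 CPM). Ccl3 was at 6.75, 10.8 and 9.21 CPM against 30.3, 59.8 and 65.0 CPM.

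The transcription factor genes Pparg and Hlf were higher as well. Pparg, the lipid-sensing nuclear receptor, was at 13.5, 75.6 and 95.8 CPM against 1.19, 4.08 and 3.97 CPM, a log2 difference of 4.46 ± 0.30 (SE). Hlf, a basic leucine zipper factor, was at 40.5, 127 and 163 CPM against 9.80, 24.3 and 24.8 CPM. In both genes BrM 1 was the lowest of the 3 libraries in T members and in CD4 cells alike. Tbx21, the factor of interferon-producing T cells, and its target Cxcr3 were lower in T members: Cxcr3 was at 54.0, 32.4 and 16.6 CPM against 133, 95.8 and 84.4 CPM. Of 27 tested lineage factors 5 were higher and 6 lower, where 4.77% of all tested genes were higher and 2.9% lower. Th2 chemokine receptors did not pass, with Ccr4 at 74.3, 54.0 and 34.1 CPM against 32.6, 32.1 and 36.8 CPM (adjusted p = 0.111).

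Hdc, which makes histamine, was at 20.3, 100 and 71.8 CPM in T members against 4.06, 2.86 and 5.96 CPM in CD4 cells, and was found in 37 T members. The defining mast cell and basophil genes Mcpt8, Fcer1a and Gata2 were at 0 in them, and Cpa3 and Ms4a2 are at 0 by rule. Atf3, Il10ra, Ptpn13 and Prxl2a completed the 10 largest increases. The lower group held Rsad2 and Ifitm1 of the interferon response, the guanosine triphosphatase Gimap7, Nmrk1, Ece1, Ier5l, Sla2 and Tmem65. Of 29 tested interferon response genes, 9 were lower and 1 higher, with 2.9% of all tested genes lower. Ifitm3, the one that was higher, had 39.8% of its UMIs over all members in 1 MFP 1 cell, and without MFP 1 its log2 difference was -0.16.

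Residency and activation genes went in both directions. Of 19 tested residency and egress genes 3 were higher, 6 were lower, among them the integrin Itgb1, and 10 did not pass, with a median log2 difference of -0.32. Over all tested genes 4.77% were higher and 2.9% lower, which also stands beside the lists that follow. S1pr1 and Klf2, which let cells leave tissue, were lower in T members, S1pr1 at 47.3, 41.7 and 48.8 CPM against 149, 104 and 104 CPM. Cd69, which opposes exit, was higher at 919, 727 and 718 CPM against 399, 346 and 427 CPM. Of 28 immediate-early and NF-kB feedback genes, 19 were higher and 2 lower. Of 24 tested inhibitory and costimulatory genes, 8 were lower, among them Ctla4, Pdcd1, Lag3 and Icos, and 5 were higher, among them Tnfsf11 and Pdcd1lg2. Proliferation genes were higher in 6 of 22, but Mki67 stood at 270 CPM in BrM 1 and at 31.3 CPM in MFP 2, where CD4 cells had 31.2 CPM.

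Treg cells, which can also carry Gata3, Il1rl1 and Areg, differed in more genes. In the same 3 libraries edgeR's quasi-likelihood test called 918 of 7984 genes (11.5%), 492 higher in T members (6.16%) and 426 lower (5.34%). With library totals in place of TMM factors 398 of 1035 calls were higher, and with DESeq2 277 of 431. The count was 373 without MFP 1 and 243 without MFP 2. Cd40lg was at 108, 255 and 353 CPM in T members against 6.97, 4.41 and 9.58 CPM in Treg cells, a log2 difference of 5.17 ± 0.28 (SE, adjusted p = 2.95e-06). Areg was only modestly higher, at 358, 815 and 755 CPM against 210, 212 and 532 CPM (1.21 ± 0.23, SE, adjusted p = 0.0056). Calca, Hdc, Pparg, Hlf, Ptpn13, Prxl2a and Ramp3 were higher against Treg cells too, as were the chemokine Ccl1 and the ligand Tnfsf8.

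Genes lower than in Treg cells came from several lists. Of 8 tested Treg genes, 7 were lower and 1, Nrp1, was higher. Of 22 tested proliferation genes 10 were lower and 0 higher, of 28 interferon response genes 8 were lower and 1 higher, and of 21 lipid and glycolysis genes 5 were lower and 4 higher. Ikzf2 (Helios) was at 270, 131 and 138 CPM against 1325, 990 and 1428 CPM, and Ctla4 at 94.6, 159 and 116 CPM against 1437, 1278 and 921 CPM. Il10, Lrrc32, Itgb8, Ikzf4, Izumo1r, Snx9, Gimap7 and Mt1 completed the list of the largest decreases. Il4 was at 0 in Treg cells of all 3 libraries. The Foxp3 criterion separates the 2 populations by rule and was not tested.

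CD3-zero members were set against NK or ILC1 cells, the other lymphocytes without CD3, in MFP 1 to 3 with the same minimum of 4 cells. edgeR's quasi-likelihood test called 501 of 8192 genes (6.12%), 214 higher in CD3-zero members (2.61%) and 287 lower (3.5%). The median log2 difference of all tested genes was -0.48, and on simulated counts this fit gave differences that were too large (slope 1.62), so levels are given. The fit took the spread from all genes jointly here too. With library totals in place of TMM factors 279 of 471 calls were higher, and with DESeq2 228 of 286. The count was 181 without MFP 1 and 144 without MFP 2.

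ILC2 genes were higher and NK genes lower. Of 16 tested ILC2 genes, 11 were higher and 0 lower, with a median log2 difference of 3.4. Il7r was at 1103, 973 and 441 CPM against 12.6, 15.9 and 17.6 CPM in NK or ILC1 cells, Rora at 1434, 1288 and 485 CPM against 38.9, 48.8 and 45.1 CPM, and Bcl11b at 331, 223 and 176 CPM against 5.32, 6.26 and 4.97 CPM. All 11 tested genes of the NK list were lower. NK or ILC1 cells were gated on at least 2 UMIs in the sum of Ncr1, Klrb1c and Klre1, so this follows in part from the gate. Gzmb was at 27.6, 26.3 and 44.1 CPM against 1262, 1161 and 2248 CPM. Gzma was at 55.2, 65.7 and 4186 CPM against 9282, 8142 and 7312 CPM, and Ccl5 at 248, 92.0 and 2996 CPM against 7969, 7466 and 5529 CPM. The 4 CD3-zero members of MFP 3 thus stood apart across the NK list, as its summed level above shows, and without MFP 3 the fit called 427 genes.

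The named genes extended beyond the lists. Pard3, a cell polarity gene, was at 165, 210 and 264 CPM in CD3-zero members and at or below 0.321 CPM in NK or ILC1 cells. Ptgir was at 165, 92.0 and 176 CPM against 0.111, 0.241 and 0 CPM. Arg1 was at 855, 276 and 308 CPM against 0.499, 1.04 and 2.30 CPM, and Ltb4r1, Csf2, Slc7a8, Hs3st1, Ptpn13, Dach2 and Cntn1 were higher in all 3 libraries. Gzmc, a granzyme, had 0 UMIs in CD3-zero members and was at least 18.3-fold lower against the floor, and the Ly49 receptor Klra9 at least 15.1-fold lower. Plek, Klra3, Itga2, Klrb1a, Samd3, Itgam, Itga1 and Rgs16 were at 0 as well, with bounds between 4.17-fold and 8.25-fold. Genes at 0 in CD3-zero members passed the low-count filter through the NK or ILC1 cells alone.

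Within the members, BrM and MFP libraries were compared gene by gene. BrM 3, with 5 members, was left out, so 2 BrM libraries met 3 MFP libraries. edgeR's quasi-likelihood test called 0 of 2415 genes (0%) at an adjusted p below 0.05, with 231 genes at an unadjusted p below 0.05, of which 152 were lower in BrM. DESeq2 called 13, all lower in BrM. Without BrM 1, 2 genes were called, and without MFP 3, 7. The groups did not overlap in 28.3% of the tested genes.

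The lowest p-values belonged to immediate-early genes. Fos was at 189 and 135 CPM in BrM 1 and BrM 2 and at 593, 620 and 633 CPM in MFP 1 to 3, a log2 difference of -1.99 ± 0.28 (SE, adjusted p = 0.0882). The groups did not overlap. With BrM 3 added, which had 135 CPM, the adjusted p for Fos was 0.0284 (-2.04), and with a term for the kind of library it was 0.0459 (-1.97). Over all alternatives the adjusted p for Fos ran from 3.85e-05 to 0.383. Fosb was at 311 and 224 CPM against 762, 675 and 987 CPM (adjusted p = 0.171), and Junb, Nfkbid and Klf6 followed, each at an adjusted p of 0.278. The 24 tested genes of this list had a median log2 difference of -0.89, against -0.01 over all tested genes, and 0 of them passed.

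The sites did not overlap for Fos in CD4 conventional T cells either. There Fos was at 82.4, 134 and 107 CPM in BrM 1 to 3 and at 237, 241 and 241 CPM in MFP 1 to 3. Treg cells showed no overlap for Fos as well, at 63.6, 64.9 and 49.0 CPM against 128, 149 and 212 CPM. The share of all genes without overlap was not computed for CD4 or Treg cells. The test of whether the site difference itself differs between members and CD4 cells gave -0.88 ± 0.33 (SE, adjusted p = 0.46) for Fos and 0.11 ± 0.30 (SE, adjusted p = 0.994) for Fosb. That test called 21 of 8890 genes (0.236%), 2 higher in members (0.0225%) and 19 lower (0.214%). In NK or ILC1 cells the sites overlapped for Fos, at 171, 281 and 245 against 217, 189 and 221 CPM. Site and the handling of each tissue cannot be told apart.

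**Figure D5:**
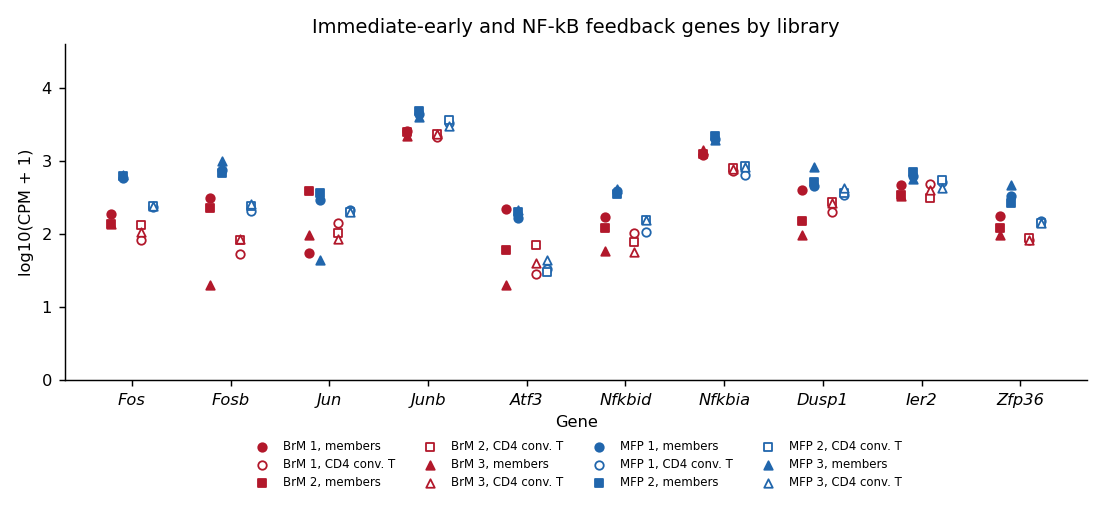
Levels as log10 of CPM + 1 (vertical axis) of 10 immediate-early and feedback genes (horizontal axis) in members (filled) and CD4 conventional T cells (open) of the 3 BrM (red) and 3 MFP (blue) libraries; each point is 1 library and shapes give the replicate number. Fos in members lies at or below 189 CPM in BrM and at or above 593 CPM in MFP.

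Genes with the lowest p-values in the other direction also missed the threshold. Iigp1, an interferon-inducible guanosine triphosphatase, was at 209 and 210 CPM in BrM 1 and 2 against 31.0, 58.4 and 96.5 CPM (adjusted p = 0.278). Stmn1, a gene of dividing cells, was at 486 and 210 CPM against 128, 65.1 and 172 CPM (adjusted p = 0.351), and its log2 difference of 1.66 became -0.15 without the 7% of barcodes with the highest doublet scores. Lsm6, Lmnb1 and Timm23 had the same adjusted p of 0.351. The 11 tested proliferation genes had a median log2 difference of 1.04, with 0 passing, in 27 BrM cells.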

How the data were processed

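The deposited files are filtered feature matrices of raw UMI counts, made by the authors with Cell Ranger 4.0 on mm10, per the submitters' processing notes. All 6 libraries were used. Barcodes with at least 500 UMIs, 200 genes and at most 10% mitochondrial UMIs were kept, and no doublets were removed in the reported values, since the doublet caller (scanpy 1.11.5) marked 1 to 3 barcodes in 4 libraries. Leaving out the 7% highest scores is an alternative. The members and gene lists were chosen with earlier results of these data known.

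Raw counts were summed per library and population, with at least 10 cells a library (4 for CD3-zero members), filtered by edgeR's expression filter, and fitted with edgeR 4.0.16 (TMM factors, quasi-likelihood test, R 4.3.3). Benjamini-Hochberg adjustment ran over all tested genes, with a threshold of 0.05. DESeq2 1.42.0 was an alternative. CPM are scaled to the population's own UMI total in a library. The design assumed 10 cells for the CD3-zero fits, which only MFP 2 reached.

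Genes are named if they passed, averaged at least 50 CPM in the higher group and moved the same way in every library, up to 10 per direction by fold change. Members of the gene lists that passed may be named too, and where none passed, the 5 lowest p-values per direction. Rule genes enter no test. Shares were compared by exact permutation, and binomial intervals are exact. On simulated counts the fits recovered 48% of 4-fold changes between the sites, 32% between T and CD3-zero members, 75% between T members and either CD4 or Treg cells, 15% between CD3-zero members and NK or ILC1 cells, and 25% in the interaction. In the last 2 the fitted log2 differences were too large, with slopes of 1.62 and 1.4 on the simulated ones. Depth per library is given with the results.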

Additional observations from a re-analysis of the deposited data

Results flagged for a closer look

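For 21 of 8890 genes (0.236%) the site difference (BrM 1 and 2 against MFP 1 to 3) was not the same in members as in CD4 conventional T cells, by edgeR's quasi-likelihood test of the interaction at an adjusted p below 0.05. DESeq2 called 1. On simulated counts this fit gave log2 differences that were too large (slope 1.4). The log2 values below are the site difference in members minus that in CD4 cells.

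Genes of antigen presentation were among them, and single cells carried much of the members' counts. H2-Aa had -4.87 (adjusted p = 1.77e-05), with 56.0% of its UMIs in 1 MFP 1 cell. H2-Eb1 had -3.88, H2-Ab1 -3.39 and Cd74 -2.70, with 57.7%, 43.5% and 41.1% in 1 cell. Il1b had -4.86, with 77 of 91 UMIs in 1 cell. The fitted value for Cd209a was -14.24, but all 28 UMIs lay in 1 MFP 1 cell and the members of every other library had 0, so it is no measure of size. Ifitm3 had -2.09, with 39.8% in 1 cell. In CD4 cells H2-Aa, H2-Eb1, H2-Ab1, Cd74 and Il1b followed the kind of library. H2-Aa stood there at 439, 239 and 148 CPM in BrM 2, BrM 3 and MFP 3, where lymphocytes were fewer, and at 8.96, 34.3 and 6.56 CPM in BrM 1, MFP 1 and MFP 2. H2-Eb1, H2-Ab1, Cd74, Il1b and Cxcl2 were likewise higher in each of the former 3 libraries than in each of the latter 3. Ifitm3 was not, at 524, 332 and 206 CPM in CD4 cells of BrM 1 to 3 and 67.6, 73.5 and 88.6 CPM in MFP 1 to 3. Nor was Cd209a, at 0 in CD4 cells of MFP 3. The part of the single cells and of the library kind in these differences was not tested.

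Cytokine and chemokine genes followed. Cxcl2 had -5.18, Penk -4.91, Il2 -4.84, Igfbp7 -4.18 and Ccl1 -3.16. Members of BrM 1 and BrM 2 held few of these UMIs, so the values are poor measures of size. Cxcl2 had 0 and 2 UMIs there, Penk 0 and 1, Il2 1 and 0, Igfbp7 1 and 1, and Ccl1 5 and 1. Penk stood at 1642 CPM in BrM 3 members, which were too few for the fit. The chemokine receptor Ccr2 had -1.93, Plac8 -2.04 and Il7r -1.50. Slfn5 had -2.45, Tmem64 -1.79, Furin -1.39 and Nfkbia -0.99. Higher values were found for Tcrg-C1 at 3.53 and for Tnfrsf9 at 1.42. For Tcrg-C1, 1 CD3-zero cell of BrM 2 held 28.8% of the members' UMIs and all 15 of those in BrM 2. BrM 3 members, which were not in the fit, had 0. Tnfrsf9 overlapped between the sites in members, at 128 and 434 CPM in BrM 1 and BrM 2 against 83.1, 83.7 and 300 CPM in MFP 1 to 3.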

How the results depend on the processing

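The share of members kept its direction under every alternative run. The class count model gave 0 to 3 called classes without 1 library, the 0 without BrM 1, where T members had -2.67 and CD3-zero members -3.29, and leaving out 1 library gave -2.98 to -2.0 and -6.33 to -3.29. For the site comparison (0 genes), DESeq2 gave 13, no low-count filter 50, leaving out high doublet scores 2, a term for library kind 1, at least 5 members a library 1, and leaving out 1 library 0 to 7. With the replicate number as a replicate block it gave 63, or 10 with at least 5 members, but same-numbered libraries correlated by only 0.11, 0.08 and 0.20, 4 of 6 best with their own number, and the labels tie the numbers to no shared animal or day. T against CD3-zero members (113) gave 61 without the library block and 3 to 136 without 1 library. T members against CD4 cells (757) gave 264 with DESeq2, 311 without the block, 323 with at least 5 cells and 276 to 830 without 1 library. Against Treg cells (918) DESeq2 gave 431 and leaving out 1 library 243 to 1233. CD3-zero members against NK or ILC1 cells (501) gave 286 and 144 to 427. The interaction (21) gave 1 with DESeq2, 61 without the filter, 74 without high doublet scores and 9 to 142 without 1 library. Signs turned for Stmn1 between sites (-0.15 without high doublet scores) and, against CD4 cells, for Cst3 (-0.10) and Ccl1 (-0.41) with at least 5 cells and Ifitm3 (-0.16 to 1.24 without 1 library, the lowest without MFP 1, -0.10 without the block, -0.20 with at least 5 cells). The cause was not tested. A site comparison of T members alone and one with at least 20 members a library were not run, since too few BrM libraries qualified. Alternatives with at least 5 or 4 cells were chosen after seeing the data. The 27 BrM cells and 30 CD3-zero cells of the fits limit what can be detected.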
